A study of Homo sapiens with 6 samples.

Results

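The ZNF genes of human chromosome 19 encode zinc finger proteins, and 239 of the 58735 genes in the deposited expression table belong to this set. They were chosen by annotation and position alone: protein-coding, a symbol of ZNF followed by a digit, the zf-C2H2 transcription factor family in the table, and chromosome 19. Expression was measured in Raji, an established B-cell line from a Burkitt lymphoma, carrying a GFP-ffluc reporter according to the labels. One group of 3 libraries came from cells given the solvent DMSO, and the other group of 3 from cells given 1 nM bryostatin-1, a marine natural product that acts on protein kinase C. Both groups were kept overnight at 37 °C, and both came from the same reporter line grown with 10% serum. All data therefore describe 1 cell line, and the labels do not tell whether libraries of a group were separate cultures, so the p-values here cover the spread between libraries only.

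A C2H2 zinc finger is a short fold in which a pair of cysteines and a pair of histidines hold a zinc ion, and successive fingers read successive bases of DNA. Most ZNF genes of chromosome 19 arose by tandem duplication and lie in clusters, and many of their proteins carry a KRAB domain, which recruits the corepressor TRIM28. TRIM28 in turn brings the histone methyltransferase SETDB1 and HP1 proteins, and this machinery is known for silencing transposable elements.

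Depth was 19405370 to 24468270 reads on genes per library, 126214495 in all, recovered from the values. The B-cell markers MS4A1, CD79A, CD79B, PAX5, CD22 and CD74 were each at or above 1 FPKM on average (fragments per kilobase of gene length, scaled to the depth of the library). The T-cell list summed to 3.26 to 11.8 FPKM in DMSO and 3.49 to 13.6 FPKM with bryostatin, with TRAC alone above 1 FPKM and no read on CD2. In the NK-cell list NKG7 alone passed 1 FPKM, and NCAM1 and KLRD1 had no read. None of the myeloid, erythroid, stromal, epithelial or endothelial markers reached 1 FPKM on average.

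Many of the ZNF genes had few or no reads in these cells. Averaged over the 6 libraries, 100 of the 239 genes reached 1 FPKM, 61 lay between 0.1 and 1 FPKM, and 36 lay below 0.1 FPKM with at least 1 read. The remaining 42 genes had no read in any library. For a gene of the median length of 5017 bases, a count of 0 allows up to 0.0243 to 0.0315 FPKM in a single library (3 reads, counting error only). The median ZNF gene stood at 0.600 FPKM, and 11 genes passed 5 FPKM. All 239 genes together took between 0.157% and 0.183% of the reads of a library.

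The same rule on other chromosomes gave 209 ZNF genes, of which 60.3% had at least 1 FPKM and 11.5% no read, against 41.8% and 17.6% on chromosome 19. Among the 1205 protein-coding genes of chromosome 19 outside the zf-C2H2 family, 48.3% had at least 1 FPKM and 21.2% no read. Their median stood at 0.667 FPKM, against 0.600 FPKM for the ZNF genes of chromosome 19 and 1.68 FPKM for those on other chromosomes. These values are given side by side without a test, since the genes of a chromosome are not replicates. Levels are of RNA from whole cultures, in which fewer expressing cells and less RNA per cell cannot be told apart.

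Ordered by gene start, 225 of the 239 genes fell into 10 clusters, defined as runs of at least 5 genes whose neighbouring starts lay at most 500000 bases apart, and 14 genes lay outside them. The clusters are numbered here from the p-arm end, with positions in hg38. Cluster 1 covers 2.82 to 2.94 Mb with 5 genes, cluster 2 covers 8.81 to 9.79 Mb with 13, cluster 3 covers 11.48 to 12.64 Mb with 25 and cluster 4 covers 19.67 to 24.13 Mb with 35. On the q arm, cluster 5 covers 34.68 to 34.96 Mb with 5 genes, cluster 6 covers 36.18 to 37.82 Mb with 26 and cluster 7 covers 43.53 to 44.5 Mb with 21. Cluster 8 covers 51.57 to 53.58 Mb with 37 genes, cluster 9 covers 55.48 to 56.67 Mb with 16 and cluster 10 covers 57.19 to 58.48 Mb with 42.

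**Figure D1:**
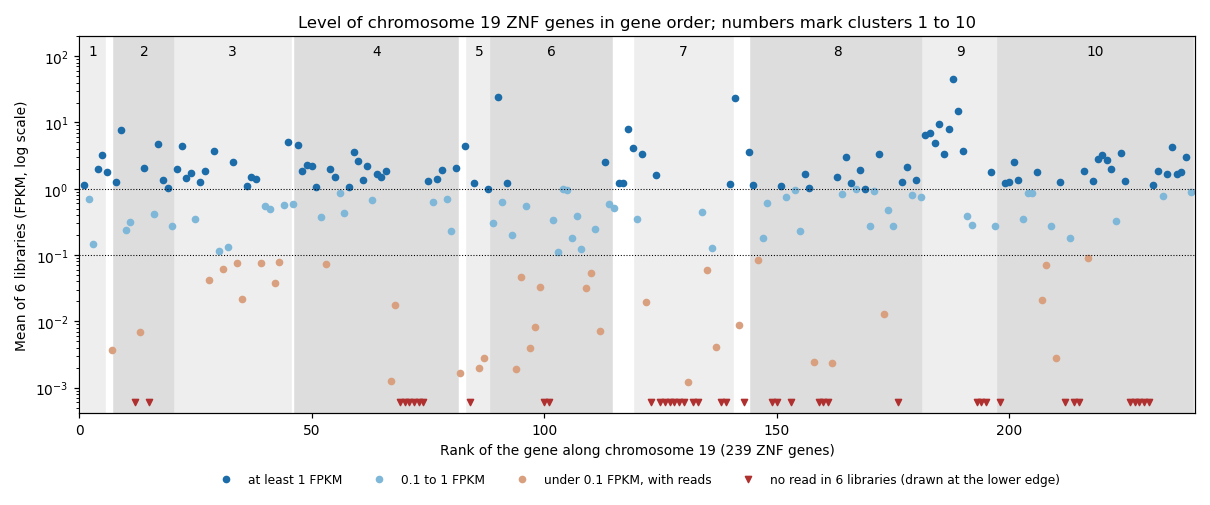
Mean level of each of the 239 ZNF genes over the 6 libraries (vertical log axis, FPKM) by its rank along chromosome 19 (horizontal axis). Shaded bands are clusters 1 to 10, dotted lines mark 0.1 and 1 FPKM, and triangles are the 42 genes without a read, many of them next to each other in clusters 4, 7 and 10.

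The clusters held different shares of weakly transcribed genes, given here without a test. In cluster 7, 15 of its 21 genes lay below 0.1 FPKM, 11 of them without a read, and the 3 genes that reached 1 FPKM were ZNF576 (3.38 FPKM), ZNF45 (1.60 FPKM) and ZNF180 (1.16 FPKM). Cluster 6 had 3 of 26 genes at or above 1 FPKM, and its median gene stood at 0.190 FPKM. Its level was carried by ZNF146, at 24.3 FPKM, while the next gene of the cluster, ZNF607, stood at 2.54 FPKM. In the small cluster 5, 3 of 5 genes lay below 0.1 FPKM.

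Among the other clusters, cluster 9 had the highest median, 3.50 FPKM, with 10 of 16 genes at or above 1 FPKM. Cluster 4 had 19 of 35 such genes, cluster 10 had 21 of 42, cluster 3 had 12 of 25, cluster 2 had 6 of 13, cluster 1 had 3 of 5 and cluster 8 had 13 of 37. No gene of cluster 1 lay below 0.1 FPKM, and none of cluster 3 was without a read. Other protein-coding genes lie inside the spans of most clusters. In cluster 7, 5 of 15 such genes reached 1 FPKM, and in cluster 6, 2 of 6. The counts were 0 of 9 in cluster 2, 2 of 12 in cluster 3 and 1 of 4 in cluster 4. They were 3 of 18 in cluster 8, 7 of 23 in cluster 9 and 4 of 24 in cluster 10. The genes counted in clusters 7 and 6 include zf-C2H2 genes whose symbols do not follow the ZNF pattern, 1 of the 15 and 4 of the 6. The 2 that passed in cluster 6 were the zf-C2H2 genes HKR1 (1.08 FPKM) and ZFP30 (1.75 FPKM).

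**Figure D2:**
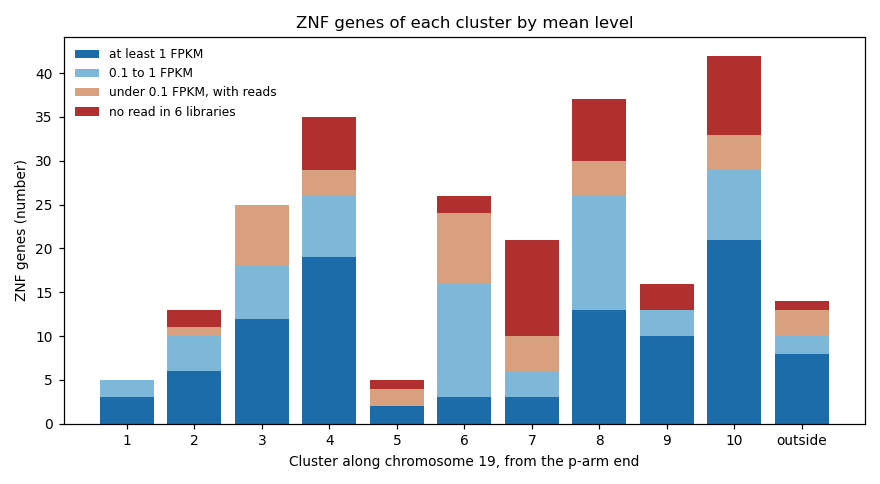
Number of ZNF genes (vertical axis) in each cluster and outside the clusters (horizontal axis), split by mean level over the 6 libraries. Cluster 7 has 15 of 21 genes below 0.1 FPKM, and cluster 6 has 3 of 26 at or above 1 FPKM.

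Runs of at least 4 neighbours below 0.1 FPKM occurred in 5 clusters. The longest run, in cluster 7, held 9 consecutive ZNF genes from ZNF221 to ZNF234 over 209.1 kb (43951223 to 44160309), with 1 read in total, which fell on ZNF224. ZNF224, a KRAB protein first described as a repressor of aldolase A, was at 0.00742 FPKM in bryostatin replicate 1 and at 0 in the other 5 libraries. It shares 40.5% of its exon bases with a gene on the opposite strand, and since the strand setting of the counting is not given, its low value is uncertain. The next gene, ZNF226, had 390 reads and 0.441 FPKM, and the gene before the run, ZNF45, had 892 reads. A second run, in cluster 4, held 8 genes from ZNF208 to ZNF728 over 1070 kb (21932958 to 23003176) with 12 reads in total, 11 of them on ZNF257.

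Shorter runs below 0.1 FPKM lay in clusters 6, 8 and 10, with 5 genes each. ZNF850 to ZNF568 in cluster 6 had 30 reads over the 6 libraries, and ZNF610 to ZNF578 in cluster 8 had 3. ZNF418, ZNF256, ZNF606, ZNF135 and ZNF329 in cluster 10 had none. Clearly transcribed genes were neighbours as well. The first 9 genes of cluster 9, from ZNF628 to ZNF444, all lay between 3.32 and 46.0 FPKM, and they were followed by ZNF582 at 0.389 and ZNF583 at 0.280 FPKM and by ZNF667, ZNF471 and ZNF470 without a read. Clusters 4 and 10 each held a pair of runs of 5 neighbours at or above 1 FPKM.

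Reads that fit several genes can be lost in counting, so the uniqueness of each gene was measured on GENCODE 29 transcripts. Stretches of 100 bases were taken from the longest transcript of each gene and sought in annotated transcripts of other genes. Other transcripts of the gene, reverse-strand copies and unannotated copies in the genome were not searched. Of the 42 genes without a read, 24 shared no exon base with another gene of the table on either strand, 29 shared no stretch of 100 bases with a transcript of another gene, and 20 met both conditions. In the run of cluster 7, ZNF221, ZNF230 and ZNF234 met both. ZNF223 and ZNF284 did not, since other genes cover 45.4% and 43.9% of their exon bases. Neither did ZNF155 (41.4%), ZNF222 (17.2%) and ZNF225 (0.817%). In the run of cluster 4, ZNF728 met both. The unread ZNF98 and ZNF492 of that run share 34.7% and 18.4% of their 100-base stretches, mostly with each other. ZNF559-ZNF177, whose symbol joins a pair of neighbours in cluster 2, had no read and shares 83.8% of its exon bases, and the reads of ZNF177 are uncertain for the same reason. Among the 100 genes at or above 1 FPKM, 52 shared no exon base and 62 no stretch of 100 bases. Sharing was more frequent in the classes between. Of the 61 genes between 0.1 and 1 FPKM, 17 shared no exon base and 35 no stretch. Of the 36 genes below 0.1 FPKM with reads, 13 shared no exon base and 18 no stretch. What sharing contributes to these levels was not tested.

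Finger number and gene length were compared across the levels. Counting fingers in the translated coding sequence (a cysteine pair spaced by 2 residues, then 12 residues, then a histidine pair spaced by 3 to 5) gave 3 to 36 per protein with a median of 12. The median was 12 fingers for genes at or above 1 FPKM, 13 for those between 0.1 and 1 FPKM, 11 for those below 0.1 FPKM with reads and 13 for those without a read. Median gene lengths in the same order were 5031, 5989, 5023 and 4330 bases.

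Sequences upstream of a start were read for the 175 of the 239 genes to which RefSeq (GRCh38.p14) gave a single start, taking the 250 bases before it. That start lay within 100 bases of the start of the gene in the deposited table for 130 of the 175, and which start these cells use was not measured. Shown here are a transcribed and an unread gene from each of clusters 6 and 7, where most genes were weak, 5′ to 3′ on the gene's strand. They were picked after the sequences and levels had been seen, because they carry a common run of letters, which is in capitals. ZNF146 (chr19:36214856-36215105, + strand, 24.3 FPKM) and ZNF568 (chr19:36916082-36916331, + strand, no read) are from cluster 6. ZNF45 (chr19:43935283-43935532, - strand, 1.60 FPKM) and ZNF234 (chr19:44141304-44141553, + strand, no read) are from cluster 7.
ZNF146: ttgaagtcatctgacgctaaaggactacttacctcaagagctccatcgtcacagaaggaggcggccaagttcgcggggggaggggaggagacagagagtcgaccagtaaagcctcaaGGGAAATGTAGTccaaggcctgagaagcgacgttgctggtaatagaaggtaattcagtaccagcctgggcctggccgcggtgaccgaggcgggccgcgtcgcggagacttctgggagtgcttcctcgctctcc
ZNF568: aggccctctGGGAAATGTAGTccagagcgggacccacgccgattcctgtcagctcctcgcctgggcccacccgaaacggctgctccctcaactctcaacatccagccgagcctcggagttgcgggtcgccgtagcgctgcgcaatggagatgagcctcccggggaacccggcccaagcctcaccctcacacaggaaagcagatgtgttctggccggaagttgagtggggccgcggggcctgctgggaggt
ZNF45: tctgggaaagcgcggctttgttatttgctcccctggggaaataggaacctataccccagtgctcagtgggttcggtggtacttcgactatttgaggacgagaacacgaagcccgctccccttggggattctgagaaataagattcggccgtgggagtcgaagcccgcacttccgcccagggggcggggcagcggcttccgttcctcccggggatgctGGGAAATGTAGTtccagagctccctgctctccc
ZNF234: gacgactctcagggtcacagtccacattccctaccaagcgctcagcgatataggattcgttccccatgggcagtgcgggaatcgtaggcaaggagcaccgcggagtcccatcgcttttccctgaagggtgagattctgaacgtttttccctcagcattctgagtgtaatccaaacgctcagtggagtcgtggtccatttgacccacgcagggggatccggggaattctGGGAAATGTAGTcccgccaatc

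The run GGGAAATGTAGT is the longest one shared by these 4 windows, and its reverse complement is ACTACATTTCCC. It resembles the known binding site of ZNF143, a zinc finger activator of many promoters, but a match of letters is no evidence of binding. Searched on both strands, it stood in 14 of the 175 windows (8%), against 0.365% of all 35116 RefSeq windows of the same length and 2.33% of 129 windows of ZNF genes on other chromosomes. Other protein-coding genes of chromosome 19 had it in 0.571% of 700 windows. The 4 windows that gave the run are counted among the 14, and genes of a tandem cluster share descent, so these shares are descriptions.

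In 6 of the 14 carriers the RefSeq start lay within 100 bases of the table's gene start, and in 8 it lay farther off, from 389 bases in ZNF260 to 37714 in ZNF573, with 504 in ZNF146. Of the 14 windows, 6 were among the 12 read in cluster 6 and 5 among the 15 read in cluster 7. The others belonged to ZNF444 in cluster 9, ZNF584 in cluster 10 and ZNF546 outside the clusters, and none of the windows of clusters 1, 2, 3, 4, 5 and 8 had the run. Both transcribed and unread genes carried it, which the choice of the 4 printed windows had fixed in advance. Those 4 are included in the counts by cluster and by level. The run stood in 5 of 82 windows of genes at or above 1 FPKM (ZNF146 and ZNF45 among them) and 3 of 40 between 0.1 and 1 FPKM. It stood in 2 of 28 below 0.1 FPKM with reads and 4 of 25 without a read (ZNF568 and ZNF234 among them). In cluster 6 the carriers were ZNF146, ZNF260 (1.24 FPKM), ZNF573 (0.599 FPKM), ZNF569 (0.388 FPKM), ZNF850 (0.00401 FPKM) and ZNF568. In cluster 7 they were ZNF45, ZNF283 (0.0193 FPKM) and the unread ZNF284, ZNF225 and ZNF234.

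The number of CG dinucleotides in the windows, the sites at which DNA methylation can act, was compared across levels too. The median was 15 for genes at or above 1 FPKM, 14 between 0.1 and 1 FPKM, 14 below 0.1 FPKM with reads and 17 without a read. All RefSeq windows had a median of 11, and 93.9% of them held at least 1. That set is not like the others, since it was not limited to protein-coding genes or to genes with a single start. Methylation itself was not measured in these libraries.

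Of the 10 most abundant genes, 6 were among the first 9 of cluster 9, ZNF146 and ZNF317 lay in clusters 6 and 2, and ZNF296 and ZNF574 lay outside the clusters. ZNF581, which encodes a small protein with 4 fingers, was highest, at 57.5, 54.5 and 35.8 FPKM in DMSO replicates 1 to 3 and 37.2, 45.3 and 45.6 FPKM with bryostatin. DMSO replicate 3 lay below all bryostatin libraries and the other DMSO libraries above them, so the groups overlapped. ZNF581 and its neighbour ZNF580 share exons on the same strand (23.4% and 15.1% of their exon bases), so the split of their reads is uncertain. ZNF580 stood at 8.68 ± 1.21 FPKM (SD, n = 3) in DMSO and 7.27 ± 0.735 FPKM with bryostatin.

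ZNF146, also called OZF, consists almost only of fingers and lacks a KRAB domain. It had 24.9, 22.9 and 27.7 FPKM in DMSO and 22.4, 25.0 and 22.8 FPKM with bryostatin, with overlapping groups. ZNF296 followed at 24.7 ± 3.46 and 22.1 ± 4.12 FPKM. ZNF787 stood at 14.6 ± 1.09 and 15.6 ± 1.56 FPKM, and ZNF865 at 10.0 ± 0.821 and 9.26 ± 0.194 FPKM. ZNF574, ZNF317, ZNF579 and ZNF628 completed the first 10, with means of 6.38 to 7.99 FPKM. For ZNF574 the lowest bryostatin library lay above the highest DMSO library, at 7.69 ± 0.260 and 8.29 ± 0.203 FPKM, with a log2 change of 0.10 (adjusted p = 0.490, limma).

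The comparison of bryostatin with DMSO asked which transcripts differed with treatment, and no ZNF gene of chromosome 19 passed it. Of the 100 genes tested (mean of at least 1 FPKM, log2(FPKM + 1), limma with Benjamini-Hochberg adjustment over 11071 genes), 0 had an adjusted p under 0.05, where the background over all genes was 0%, and the smallest adjusted p was 0.217. Voom weights on recovered reads gave 0 as well. At an unadjusted p under 0.05, 3 genes were higher and 2 lower, that is 3 of 100 against 10.5% of all genes tested in the higher direction and 2 of 100 against 7.18% in the lower. The groups did not overlap for 10 genes higher with bryostatin and 6 lower, against 12.9% and 10.7% of all genes. The 3 higher genes became 1 without DMSO replicate 2 or bryostatin replicate 3, and 2 without DMSO replicate 1, bryostatin replicate 1 or bryostatin replicate 2. The 2 lower genes became 4 without DMSO replicate 2 or 3 and 1 without DMSO replicate 1 or bryostatin replicate 1.

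The median log2 change was -0.0058 over the 100 genes and 0.018 over all genes tested, with 47 genes above 0 and 53 below. The log2 changes ran from -0.50 to 0.45. Changes of over 2-fold lay outside the 95% interval of 100 of the 100 genes, and changes of over 1.5-fold outside that of 92, against 93% and 73.4% of all genes tested. Adding 1 FPKM compresses changes of weak genes. With a pseudocount of 0.1 the intervals lay within 2-fold for 94 of the 100 genes and within 1.5-fold for 65, against 86.6% and 60.2% of all genes. Tested ZNF genes had a median of 208 reads per library against 725 for all genes tested, and the part of this lower depth in the low number of calls was not tested.

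**Figure D3:**
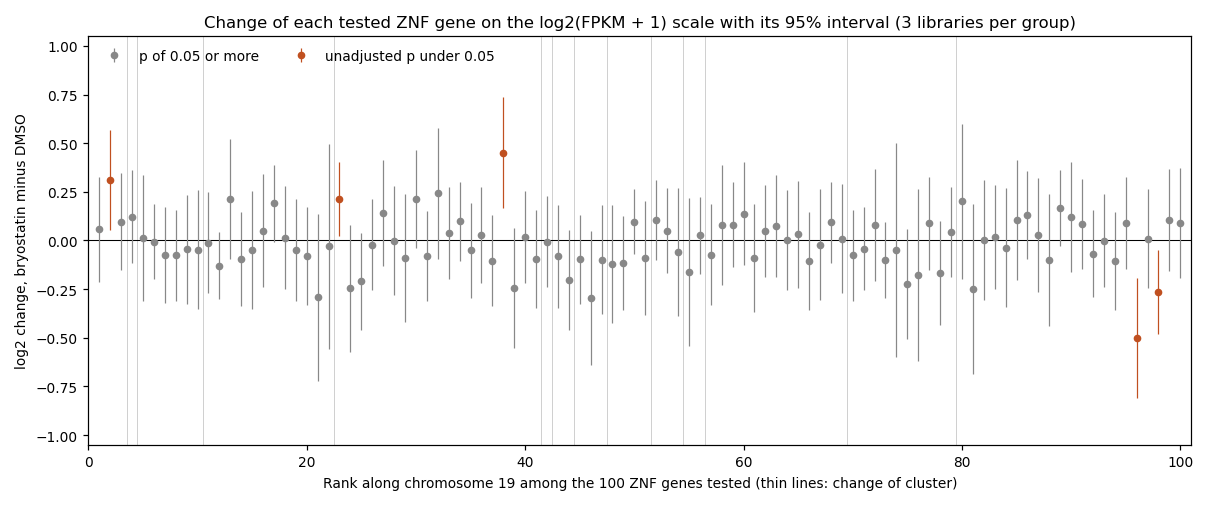
Log2 change of each of the 100 tested ZNF genes, bryostatin minus DMSO on the log2(FPKM + 1) scale (vertical axis), with its 95% interval, by rank along chromosome 19 (horizontal axis). The 5 coloured genes had an unadjusted p under 0.05, and 0 of 100 passed after adjustment.

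Cluster by cluster, medians of the log2 change ran from -0.14 in cluster 5, with 2 tested genes, to 0.097 in cluster 1, with 3. The clusters with more than 10 tested genes lay near 0, at -0.039 for cluster 3, -0.00052 for cluster 4, 0.031 for cluster 8 and 0.018 for cluster 10. In cluster 6 all 3 tested genes had log2 changes below 0 (-0.30 to -0.096), and in cluster 9, 7 of 10 did. All 3 of cluster 1 lay above 0. Of the 11071 genes tested in the whole table, 5104 lay below 0. The median tested gene of cluster 6 was at 0.20, -0.077 and 0.12 in DMSO replicates 1 to 3, relative to the mean of the 6 libraries. With bryostatin it was at -0.21, 0.044 and -0.081, so the groups overlapped. Relative to the mean of the 6 libraries, the median tested ZNF gene was at 0.053, -0.031 and -0.0019 on the log2 scale in DMSO replicates 1 to 3 and at -0.037, 0.00096 and 0.047 in bryostatin replicates 1 to 3. The libraries of each group spread on both sides of 0. Among the genes with few reads, 46 had no read in the DMSO libraries and 49 none in the bryostatin libraries, and the 11 genes with reads in 1 group alone had at most 6 reads in total.

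Of the 5 genes with an unadjusted p under 0.05, ZNF730 of cluster 4 had 0.875, 0.915 and 1.11 FPKM in DMSO and 1.41, 1.87 and 1.80 FPKM with bryostatin. Every bryostatin library exceeded every DMSO library, and the log2 change was 0.45 ± 0.12 (SE, 1.37-fold on the log2(FPKM + 1) scale, adjusted p = 0.217 in limma). ZNF730 lies next to the run below 0.1 FPKM that ends with ZNF728, and it shares 5.41% of its exon bases with another gene. ZNF101, the first gene of cluster 4, had 3.94, 4.11 and 4.45 FPKM in DMSO and 5.17, 4.69 and 5.11 FPKM with bryostatin, a log2 change of 0.21 ± 0.081 (adjusted p = 0.252, limma). ZNF57 of cluster 1 had 1.76, 1.41 and 1.80 FPKM in DMSO and 2.04, 2.45 and 2.41 FPKM with bryostatin, a log2 change of 0.31 ± 0.11 (adjusted p = 0.237, limma). Both sets of 3 libraries were apart for ZNF101 and ZNF57 too.

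The 2 lower genes lie close to each other near the end of cluster 10. ZNF837 had 2.09, 2.31 and 1.90 FPKM in DMSO and 1.52, 0.939 and 1.14 FPKM with bryostatin, a log2 change of -0.50 ± 0.13 (adjusted p = 0.217, limma). ZNF132 had 1.97, 1.94 and 1.90 FPKM in DMSO and 1.38, 1.45 and 1.51 FPKM with bryostatin, a log2 change of -0.26 ± 0.092 (adjusted p = 0.237, limma). ZNF584, which lies between them, had a log2 change of 0.0093, at 4.27 ± 0.504 and 4.30 ± 0.462 FPKM. The unadjusted p of ZNF730 and ZNF837 stayed under 0.05 with each library left out in turn. That of ZNF57 passed 0.05 (up to 0.0765) without DMSO replicate 2 or bryostatin replicate 2 or 3, that of ZNF101 (up to 0.106) without DMSO replicate 1 or 2 or bryostatin replicate 1 or 3, and that of ZNF132 (up to 0.0673) without DMSO replicate 1 or 2 or bryostatin replicate 1 or 2. Over all alternatives the adjusted p of these genes ran from 0.0880 for ZNF730 to 0.602 for ZNF101.

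**Figure D4:**
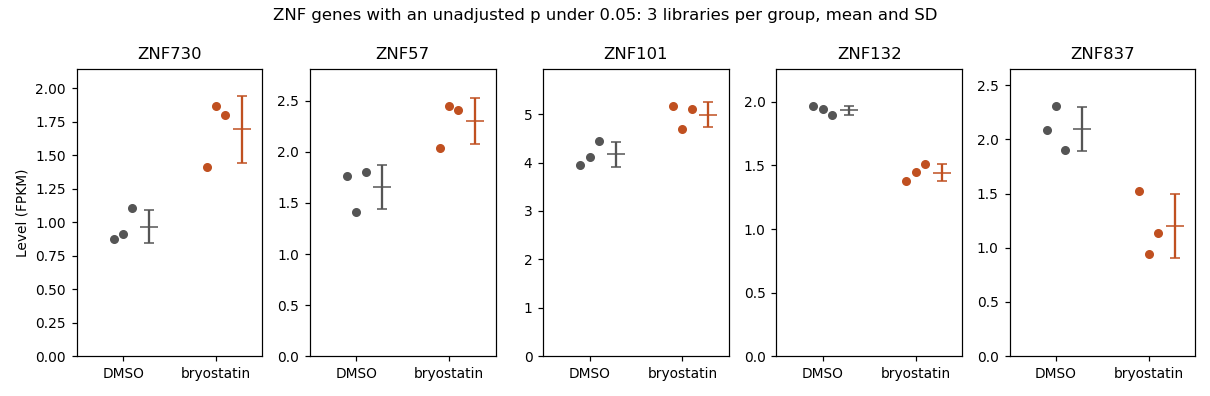
FPKM of the 5 ZNF genes with an unadjusted p under 0.05 in each of the 3 DMSO and 3 bryostatin libraries (points), with group mean and SD (bars). The groups do not overlap for any of the 5, and the smallest adjusted p is 0.217.

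With genes of at least 0.1 FPKM included, 161 ZNF genes could be tested, with a median log2 change of -0.022 against -0.0021 for all 17559 genes. At an unadjusted p under 0.05, 4 were higher and 3 lower, against 7.61% and 6.07% of all genes in that comparison. The additional ones were ZNF85 and ZNF497. ZNF85, a KRAB gene of cluster 4, had 0.860, 0.860 and 0.962 FPKM in DMSO and 1.14, 1.21 and 1.24 FPKM with bryostatin. ZNF497, of cluster 10, had 0.958, 1.17 and 0.730 FPKM in DMSO and 0.446, 0.603 and 0.714 FPKM with bryostatin, and it shares 45.3% of its exon bases with other genes.

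ZNF genes with known roles were followed whether or not they passed. ZNF91, which represses SVA retrotransposons, had 1.92, 1.27 and 1.62 FPKM in DMSO and 1.03, 1.33 and 1.21 FPKM with bryostatin, with overlapping groups (log2 change -0.24 ± 0.13, adjusted p = 0.359 in limma). ZNF93, which represses LINE-1 elements, had 0.976 ± 0.105 FPKM in DMSO and 1.18 ± 0.138 with bryostatin, and again the groups overlapped. ZNF274, which recruits SETDB1 to the ends of ZNF genes, had 1.23 ± 0.111 and 1.07 ± 0.0354 FPKM. ZNF43 had 1.98 ± 0.137 and 1.77 ± 0.168 FPKM, and ZNF260, a protein made almost only of fingers, 1.47 ± 0.324 and 1.01 ± 0.231 FPKM. ZNF45 had 1.55 ± 0.0231 and 1.65 ± 0.0645 FPKM.

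ZNF331 and ZNF350 were below the level for testing. ZNF331, an imprinted gene, had 0.742 ± 0.232 and 0.745 ± 0.110 FPKM. ZNF350, also known as ZBRK1, a repressor that works with BRCA1, had no read in any of the 6 libraries. Its exon bases are shared with no other gene, nor the 100-base stretches of its longest transcript with another annotated transcript. The most abundant genes of the other clusters had overlapping groups: ZNF77 in cluster 1 (3.14 ± 0.467 and 3.41 ± 0.194 FPKM), ZNF791 in cluster 3 (5.12 ± 1.36 and 5.02 ± 1.41 FPKM), ZNF181 in cluster 5 (1.29 ± 0.0212 and 1.17 ± 0.180 FPKM), ZNF576 in cluster 7 (3.22 ± 0.264 and 3.53 ± 0.183 FPKM) and ZNF160 in cluster 8 (3.50 ± 0.414 and 3.18 ± 0.349 FPKM).

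A list of related genes was chosen, called the corepressor list here. It holds TRIM28, SETDB1 and the HP1 genes, and also further chromatin genes such as ATRX, DAXX, SUV39H1, SUV39H2, SMARCAD1 and MORC2. Its counts are therefore not those of KRAB corepressors alone. All 23 listed genes were tested, at 2.91 to 129.3 FPKM, and 0 passed an adjusted p of 0.05 (background 0%; 9 at an unadjusted p under 0.05, and voom also gave 9). The median log2 change was 0.077, with 14 genes above 0 and 9 below. At an unadjusted p under 0.05, 7 were higher (background 10.5%) and 2 lower (background 7.18%), with a smallest adjusted p of 0.226. TRIM28, which itself lies on chromosome 19 (58544091 to 58550722), had 95.3, 97.3 and 127.2 FPKM in DMSO and 148.9, 132.4 and 127.5 FPKM with bryostatin. DMSO replicate 3 stood next to the lowest bryostatin library, and the log2 change was 0.36 ± 0.13 (adjusted p = 0.247, limma).

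The HP1 gene CBX3 showed the same order of libraries, with 43.6, 47.9 and 61.4 FPKM in DMSO and 75.9, 69.7 and 61.4 FPKM with bryostatin (log2 change 0.44 ± 0.15, adjusted p = 0.232 in limma). The HP1 genes CBX1 and CBX5 had log2 changes of 0.25 and 0.082. SUV39H1, a histone H3 lysine methyltransferase, had 4.47, 4.63 and 6.71 FPKM in DMSO and 8.01, 7.08 and 7.49 FPKM with bryostatin, a log2 change of 0.46 ± 0.14 (adjusted p = 0.226, limma). RBBP7, MTA2 and DAXX had log2 changes of 0.30, 0.22 and 0.18. SETDB1 had a log2 change of -0.0061, at 5.44 ± 0.169 and 5.41 ± 0.221 FPKM. Its partner ATF7IP had 8.91, 7.30 and 8.97 FPKM in DMSO and 5.82, 7.06 and 6.60 FPKM with bryostatin (log2 change -0.32 ± 0.11), and MTA1 had a log2 change of -0.19. The count of 9 genes at an unadjusted p under 0.05 became 2, 3, 1 and 4 without DMSO replicate 1, DMSO replicate 2, bryostatin replicate 1 and bryostatin replicate 2.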

How the data were processed

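Raji poly(A)-enriched RNA was measured in 6 libraries. The deposited values are FPKM, scaled to gene length and library depth, for 58735 genes, per the file headers, beside the deposited gene length. The build hg38 is named in the submitters' processing notes, as are these tools without their roles: DESeq2 (1.20.0), featureCounts (1.5.0-p3), HISAT2 (2.0.5) and CASAVA. For annotation release, strand setting and multiply mapped reads, the choice is not given in the sources used here, so reads of overlapping antisense genes cannot be told apart. The deposited length of each of the 239 ZNF genes equals its exon union in GENCODE 29. Multiplied by length, all values (100%) were multiples of the worth of 1 read in their library to within 0.001 reads, and whole reads were recovered from them. Median-of-ratios size factors of the deposited FPKM values were 1 in every library to 3 decimals, so that scaling leaves them as they are.

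The 11071 genes averaging 1 FPKM or more entered limma (3.58.1, R 4.3.3) on the log2(FPKM + 1) scale, with an intensity trend and Benjamini-Hochberg adjustment over all of them. With 3 libraries a group, the smallest two-sided p of an exact permutation test is 0.1. Replicate pairs differed by more than sampling noise, with a chi-square of 10.5 to 34.9 per gene. The values were largest, 33.7 and 34.9, for the pairs with DMSO replicate 3. The fit was tested on simulated reads, drawn with the same dispersion (extra spread between libraries) for all genes and no deviating library. That setting does not copy the uneven replicates seen here. Same-numbered libraries did not deviate together, with correlations of -0.29, -0.32 and -0.11, so the main fit has no block. Members, lists and tests were chosen with earlier results of these data known. Named were the 10 most abundant ZNF genes, non-overlapping ones whose unadjusted p was under 0.05, the most abundant gene of each cluster, 11 genes of interest, and corepressor genes. Other genes named by level, the genes of runs, ZNF497 and the shared upstream run were picked after values or sequences were seen. Upstream windows are from RefSeq, and GC content, fingers and sequence sharing from GENCODE 29, computed with Python 3.11.15. A marker gene and the sum of its list are not reported here.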

Additional observations from a re-analysis of the deposited data

How the results depend on the processing

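No ZNF gene passed an adjusted p of 0.05 under any of the 22 alternatives, 2 of which (removal of a GC trend, and a 0.1 FPKM filter with a pseudocount of 0.1) were chosen after seeing the data. The counts at an unadjusted p under 0.05 were 3 higher and 2 lower of 100 genes in the main fit. They were 5 and 5 of 197 genes tested without a filter on low values, and 0 and 0 of 11 with a filter of 5 FPKM. With the replicate number as a block they were 1 and 1 of 100. The shares of all genes at this limit were computed only for the main fit and the filter of 0.1 FPKM. Voom weights gave 5 lower genes and protein-coding genes alone gave 4. With each library left out in turn, the higher count ran from 1 to 4 and the lower count from 1 to 4. Without DMSO replicate 3, 267 genes of the whole table were called, against 0 or 1 without any other library. The median log2 change of the tested ZNF genes was -0.053 with TPM and -0.076 with a filter of 5 FPKM, where 11 remained to be tested. It stayed between -0.038 and 0.011 with a library left out. The corepressor count of 9 was 4 with quantile normalisation and 1 with the replicate block, and ran from 1 to 10 with a library left out. The block pairs libraries by number only, and their deviations gave no sign of pairing. Gaps of 250000 and 1000000 bases gave 12 and 9 clusters in place of 10.

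Of 39 named genes with a fit, 34 kept the sign of their change under every alternative that tested them, with 22 of the 39 tested under the filter of 5 FPKM. ZNF584 (0.0093) was at -0.035 with TPM, -0.011 with voom, -0.019 with the length trend removed, -0.060 without DMSO replicate 2 and -0.052 without bryostatin replicate 1. ZNF317 was at 0.036 without DMSO replicate 1 and 0.035 without bryostatin replicate 2, and ZNF579 at 0.031 without DMSO replicate 1. ZNF791 was at 0.13 without DMSO replicate 2 and 0.18 without bryostatin replicate 2. SETDB1 was at 0.029 with the length trend removed, 0.014 without DMSO replicate 1 and 0.020 without bryostatin replicate 2. With a library left out, the change ran from -0.10 to 0.031 for ZNF579, -0.20 to 0.18 for ZNF791, -0.060 to 0.078 for ZNF584 and -0.029 to 0.020 for SETDB1. The cause of these differences was not tested. Depth limits what can be said of the genes below 0.1 FPKM, which rest on few reads.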

Other observations

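Chromosome 19 holds 28 further zf-C2H2 genes whose symbols do not follow the ZNF pattern (10 had no read and 7 reached 1 FPKM). KLF16 was the highest, at 20.1 FPKM with a log2 change of 0.32 (adjusted p = 0.227, limma), followed by WIZ at 7.17 FPKM. The imprinted neighbours ZIM2 and PEG3 had no read, and neither did ZFP28, which lies close to the unread ZNF471 and ZNF470 of cluster 9. In cluster 6 ZFP30 stood at 1.75 FPKM, HKR1 at 1.08, ZFP82 at 0.430 and ZFP14 at 0.383 FPKM. No read fell on KLF2 in any library.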
